A study of Mus musculus with 2 samples.

Results

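The forkhead transcription factors are a family of DNA-binding proteins, named Fox followed by a letter for the subfamily, that share a winged-helix DNA-binding domain. They were selected by name alone, as every gene in the deposited table whose symbol is Fox, a letter and a number, which gave 35 of the 17216 genes with a value. RefSeq names 44 such genes in the mouse, and the other 9 had no value here. Antisense RNAs such as Foxl2os do not match the rule and are given only as neighbours.

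Gene expression was measured by RNA-seq in crypts of the small intestine, the epithelial pits that hold its stem and progenitor cells, with 1 library per genotype. Both groups were C57BL/6 mice with AhCre, a Cre recombinase under an aryl hydrocarbon receptor responsive promoter that is used to recombine genes in crypt epithelium. All had 3 injections of β-naphthoflavone, which turns this promoter on, and were taken on day 15. The wild type had no other allele named, while the Eed knockout was also Eed fl/fl, a floxed allele of the gene for Eed, which PRC2 (Polycomb repressive complex 2) needs for its activity. The labels give no ages and do not say how many mice went into a library.

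Several forkhead factors belong to the endoderm that forms the gut. Foxa proteins open compact chromatin and act in goblet and enteroendocrine cells, Foxo proteins respond to insulin and PI3 kinase signals, and Foxm1 drives the genes of mitosis. Foxf and Foxl1 proteins are known from the mesenchyme under the gut epithelium, and many Foxc, Foxd and Foxe proteins from embryonic patterning outside the gut. PRC2 methylates histone H3 at lysine 27, and genes of developmental transcription factors are its best known targets.

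The libraries held 6970733 wild-type and 5918162 knockout reads assigned to transcripts. Eed itself had 588 and 183 reads, 3.08-fold lower in the knockout library (95% counting interval 2.61 to 3.66). None of 11 intestinal epithelium markers differed by 2-fold (27291 and 24121 reads summed). Among all genes with at least 100 wild-type reads, which these markers have, 3.07% were higher by as much and 3.58% lower. Within the list Cdx2 was 1.86-fold lower (1.72 to 2) and Olfm4 1.54-fold lower (1.45 to 1.64), while Lgr5 was 1.36-fold higher (1.2 to 1.53). With 1 library per group no difference below was tested between genotypes. Intervals cover counting error only, and the floor of 3 reads, used as a lower bound where a library had 0, covers no more. This floor is a set value and not a 95% limit, so a fold given as at least can exceed such a limit. Reads are given unscaled with the wild type named before the knockout, and a ratio divides knockout by wild type after the authors' scaling.

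The forkhead genes fell into a silent and an expressed set in wild-type crypts, with few members between. At most 5 wild-type reads were counted for 17 members, at least 100 for 15, and an intermediate number for 3 (Foxp1, Foxr1 and Foxp4). The silent set summed to 11 wild-type and 506 knockout reads, whereas the expressed set summed to 8831 and 7779. Scored over every member, with 0 reads set to the floor and members with 3 reads or fewer in both libraries counted as neither, 12 of 35 showed a gain of 2-fold or more in the knockout (called higher below). Over all 17216 genes the same rule called 14.8% higher, against 34.3% of the forkhead genes. None was lower by as much, where the rule called 4.81% of all genes. When the whole counting interval also had to lie above 1, 10 members were higher, 28.6% against 11.4% of all genes.

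**Figure D1:**
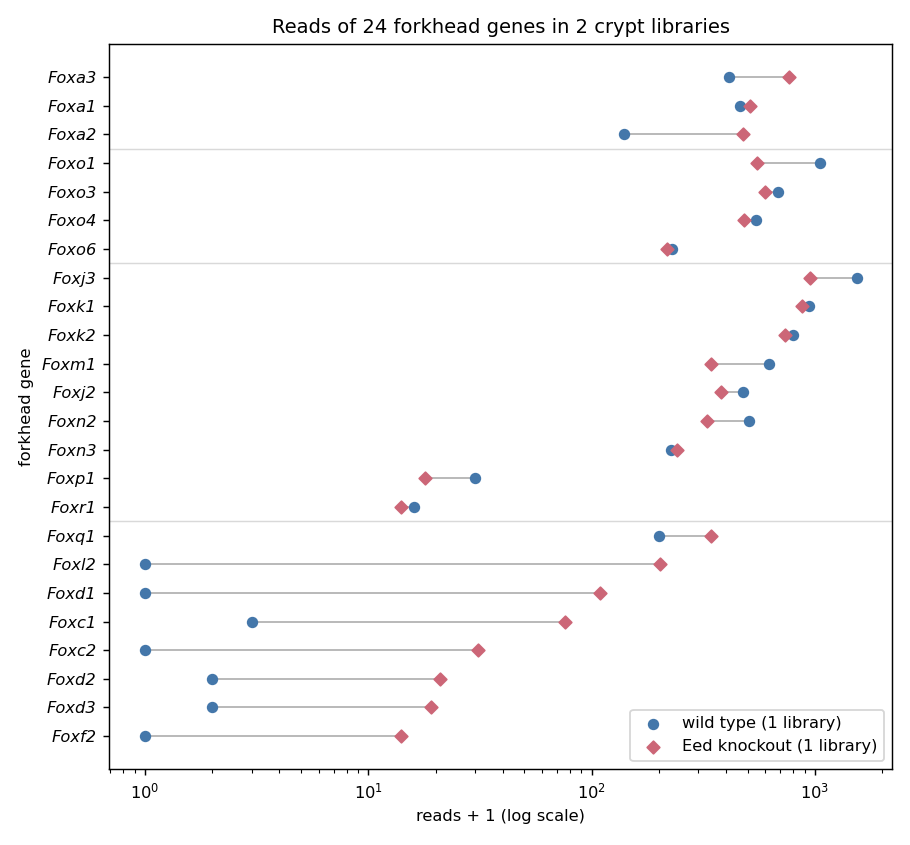
Reads plus 1 (log scale) of the 24 forkhead genes that average 20 or more normalized reads or have 10 or more in a library, in the wild-type library (circles) and the Eed knockout library (diamonds), 1 library each. Lines separate blocks of members: Foxa, then Foxo, then Foxj, Foxk, Foxm, Foxn, Foxp and Foxr together, then all others, among them Foxl2 and Foxq1. Foxl2, Foxd1 and Foxc2 lie at 0 wild-type reads with 201, 108 and 30 knockout reads, while the Foxo and Foxk genes have nearly equal pairs apart from Foxo1.

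The excess was in the silent set. Of its 17 members, 11 were called higher (64.7%), compared with 28.5% of all 4708 genes with at most 5 wild-type reads. Among the 17, 16 had more knockout than wild-type reads, Foxh1 being the exception with 1 and 0, while 66.2% of all 4708 genes did. A choice by low wild-type reads favours this direction for any gene. Genes without a read in either library are left out of the table, so a silent gene in it must have at least 1 read somewhere. The 9 forkhead genes without a value are not among the 17, and other genes without a value are likewise not among the 4708. Of the other 18 members, 1 was higher. Among the 15 with at least 100 wild-type reads, 1 was higher (6.67%, against 3.07% of all such genes) and none lower (3.58% of all such genes).

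Foxl2, the factor that maintains granulosa cells of the ovary, had 0 and 201 reads, at least 69.8-fold higher. Foxd1, a factor of kidney stroma and retina, had 0 and 108 reads, at least 37.5-fold higher. These were the 2 members that passed an adjusted p of 0.05 in the authors' deposited table, with 2.21e-05 for Foxl2 and 0.00827 for Foxd1, a threshold that 0.89% of transcript rows passed in the higher direction. Both were silent in the wild-type library and lay below every expressed member in the knockout library. Per kilobase of transcript, Foxl2 reached 63.0 normalized reads there and Foxd1 21.8, while the lowest expressed member, Foxo1, had 64.8.

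Foxc1 and Foxc2, which act in mesoderm, eye and vessels, were both higher. With 2 and 75 reads, Foxc1 was 39.1-fold higher (10.4 to 329), and Foxc2 had 0 and 30 reads, at least 10.4-fold higher. The authors' deposited table gives Foxc1 an adjusted p of 0.246 and Foxc2 1. Foxd2 had 1 and 20 reads, a ratio of 20.8 (3.33 to 864). Foxd3, a factor of neural crest and of pluripotent cells, had 1 and 18 reads, a ratio of 18.8 (2.96 to 782). With a single wild-type read each, the size of these ratios is known only to within their wide intervals, although both intervals lie above 1.

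The mesenchymal members of the gut were at a few reads in both libraries. Foxf2 had 0 and 13 reads, at least 4.52-fold higher, and its relative Foxf1 had 1 and 8, a ratio of 8.34 (1.12 to 370). Foxl1, which marks the telocytes beneath the epithelium, had 3 and 7 reads, a ratio of 2.43 (0.555 to 14.6) that counting error does not separate from 1. Foxf1 and Foxl1 and the rest of this paragraph are named after their values were seen. Foxb1, of the developing brain, had 1 and 4 reads, with an interval from 0.413 to 205. Foxj1, the regulator of motile cilia, had 0 and 5 reads, and Foxe1, of the thyroid, 0 and 4. Foxn4 had 0 and 2 reads, and Foxd4 and Foxe3, the latter of the lens, each had 0 and 1. Foxh1, a partner of Smad proteins in Nodal signalling, had 1 and 0. At this depth the last 4 cannot be placed, and Foxj1 and Foxe1 were under 2-fold at their bound.

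There were 3 groups of neighbouring forkhead genes, taken from the gene order of RefSeq with at most 1 other listed gene between members, and 1 of them held an expressed member. On chromosome 13, Foxq1 was expressed in both libraries, with 199 and 342 reads, next to Foxf2 (0 and 13) and Foxc1 (2 and 75). Gmds, the gene after Foxc1, had 1322 and 1673 reads, and Hus1b on the other side had 0 and 2. On chromosome 8, Foxf1, Foxc2 and Foxl1 had 1 and 8, 0 and 30, and 3 and 7 reads, and all 3 were called higher, Foxl1 with an interval that holds 1. Of their neighbours, Mthfsd, between Foxf1 and Foxc2, had 32 and 54 reads (ratio 1.76, 1.12 to 2.81) and Fbxo31 199 and 253 (1.33, 1.1 to 1.6). The long noncoding RNA Fendrr, beside Foxf1, had 1 and 1 (1.04, 0.0133 to 81.8). These ratios were smaller, but their intervals overlap those of Foxf1 (1.12 to 370) and Foxl1 (0.555 to 14.6). On chromosome 4, Foxd2 and its antisense neighbour Foxd2os each had 20 knockout reads, against 1 and 2 in the wild type, while Foxe3 had 0 and 1 and Cmpk1 1751 and 1581.

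Foxl2 likewise shared its pattern with the noncoding gene beside it. Foxl2os had 0 and 263 reads, at least 91.4-fold higher, and Faim, on the other side of Foxl2, had 0 and 1. The gene spans of Foxl2 and Foxl2os do not overlap in RefSeq, nor do those of Foxd2 and Foxd2os. The library kit used does not keep the strand of the RNA, so any read from a shared stretch could not be assigned to either gene by strand.

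Promoter sequences from RefSeq (assembly GRCm38.p6), covering 250 bases before to 50 after the start of a gene, were found for 21 of the 35 members. They are shown for the silent members with the most knockout reads, Foxl2, Foxd1 and Foxc1, for Foxa2, the expressed member that was higher, and for Foxk2, an expressed member with a ratio near 1. Capitals mark the dinucleotide CG, the site of DNA methylation, whose density sets apart the CpG islands where Polycomb complexes are known to bind.
Foxl2 (GRCm38.p6, chr9:98955357-98955656, plus strand): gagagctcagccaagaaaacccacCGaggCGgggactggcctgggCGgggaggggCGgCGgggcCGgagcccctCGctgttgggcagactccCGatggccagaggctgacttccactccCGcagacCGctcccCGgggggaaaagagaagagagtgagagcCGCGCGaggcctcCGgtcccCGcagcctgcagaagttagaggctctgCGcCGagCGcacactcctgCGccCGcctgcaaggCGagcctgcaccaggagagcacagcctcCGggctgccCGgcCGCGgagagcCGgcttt
Foxd1 (GRCm38.p6, chr13:98353995-98354294, plus strand): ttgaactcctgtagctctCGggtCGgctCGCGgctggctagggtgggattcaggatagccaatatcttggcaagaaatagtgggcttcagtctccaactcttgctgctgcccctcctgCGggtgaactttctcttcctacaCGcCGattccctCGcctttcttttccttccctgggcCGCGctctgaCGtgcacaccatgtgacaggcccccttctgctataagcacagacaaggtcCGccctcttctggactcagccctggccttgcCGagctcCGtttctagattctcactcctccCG
Foxc1 (GRCm38.p6, chr13:31806396-31806695, plus strand): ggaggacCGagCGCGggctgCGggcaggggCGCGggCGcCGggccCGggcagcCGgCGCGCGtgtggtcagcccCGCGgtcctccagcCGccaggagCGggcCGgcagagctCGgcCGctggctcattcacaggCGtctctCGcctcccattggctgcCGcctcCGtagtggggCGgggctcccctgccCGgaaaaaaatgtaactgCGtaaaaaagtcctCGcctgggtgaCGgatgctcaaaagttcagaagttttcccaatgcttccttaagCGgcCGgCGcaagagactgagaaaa
Foxa2 (GRCm38.p6, chr2:148046920-148047219, minus strand): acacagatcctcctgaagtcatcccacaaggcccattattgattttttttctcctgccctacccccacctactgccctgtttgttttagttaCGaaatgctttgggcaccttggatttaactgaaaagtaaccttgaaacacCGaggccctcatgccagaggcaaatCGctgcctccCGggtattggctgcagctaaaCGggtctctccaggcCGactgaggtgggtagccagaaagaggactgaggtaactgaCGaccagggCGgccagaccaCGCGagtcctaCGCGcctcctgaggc
Foxk2 (GRCm38.p6, chr11:121259737-121260036, plus strand): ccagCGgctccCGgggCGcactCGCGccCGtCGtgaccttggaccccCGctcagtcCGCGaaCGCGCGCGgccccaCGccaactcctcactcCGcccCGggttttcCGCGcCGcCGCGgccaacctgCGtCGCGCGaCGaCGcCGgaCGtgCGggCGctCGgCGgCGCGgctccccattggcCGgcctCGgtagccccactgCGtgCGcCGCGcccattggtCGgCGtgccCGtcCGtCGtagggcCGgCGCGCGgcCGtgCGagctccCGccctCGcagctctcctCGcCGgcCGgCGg

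Promoter windows were found for 9 of the 17 silent members. Foxl2 held 27 CG in its window, Foxd1 15 and Foxc1 32, against a median of 7 over all 32851 promoter windows 19 over the genes with a value and 10 over those with at most 5 wild-type reads. Over the 9, each read at its entry with the most CG, the range was 10 to 32 with a median of 25. The 6 that were called higher had 15 to 32 CG (Foxd1, Foxd3, Foxd2, Foxf2, Foxl2 and Foxc1), and the 3 that were not had 10 (Foxe3), 12 (Foxd4) and 22 (Foxn4). The CG counts of silent and expressed members overlapped: the 9 expressed members with a window held 6 (Foxn3) to 59 (Foxk2), with a median of 31. Foxa2 has 3 windows, of which the one shown holds 12 CG and the richest 23.

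Among all genes with at most 5 wild-type reads, the share called higher was lowest in those with few CG, a difference that was not tested. It was 22.5% of 1518 genes with 0 to 9 CG, 34.2% of 657 with 10 to 19, 37.5% of 534 with 20 to 29 and 36.4% of 450 with 30 or more. Taking the genes with at least 10 CG as the background, 35.9% of 1641 were higher, where 6 of the 9 silent forkhead genes were. The forkhead binding motif TGTTTAC, searched on both strands (GTAAACA on the other), was present in the window of 1 of the 21 members, Foxa1, and in 3.65% of all promoter windows.

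**Figure D2:**
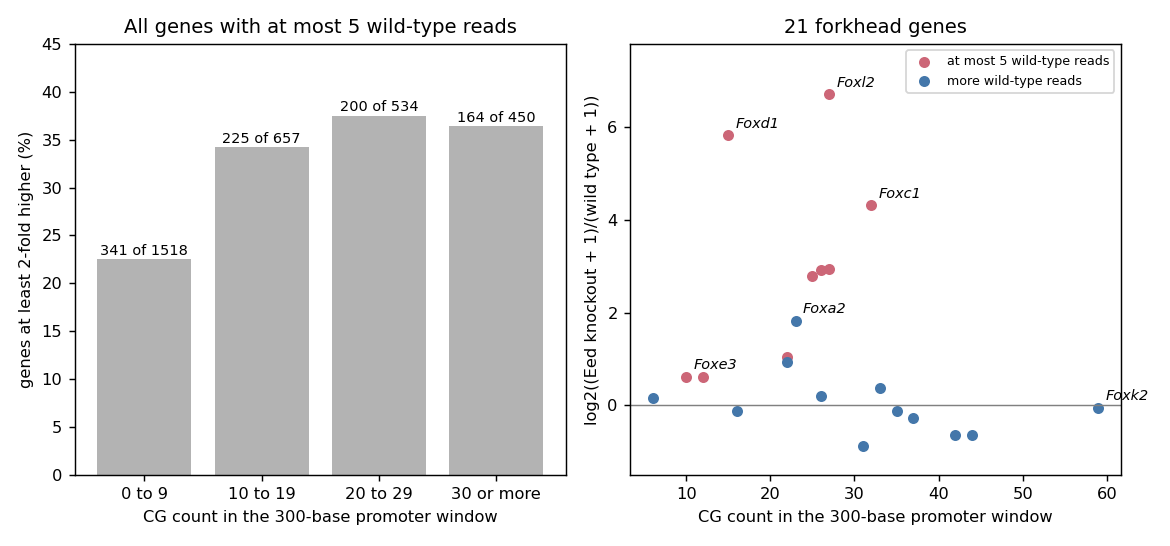
Left, the percentage of genes with at most 5 wild-type reads called higher in the Eed knockout, by CG count of the 300-base promoter window, with counts above the bars. Right, CG count against the log2 ratio of the 21 forkhead genes with a window: members with at most 5 wild-type reads (red) reach 6.71 (Foxl2), and of those with more (blue), which span 6 to 59 CG, the highest is Foxa2 at 1.83.

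The Foxa genes, of the endoderm, were all above 1 in the knockout library but differed in size. Foxa2 had 138 and 477 reads, 3.60-fold higher (2.97 to 4.39), Foxa3 had 412 and 761, 1.93-fold (1.71 to 2.18), and Foxa1 had 460 and 512, 1.16-fold (1.02 to 1.32). In levels per kilobase the order changed: in the wild type Foxa3 led with 198 normalized reads, then Foxa1 with 141 and Foxa2 with 63.5, and in the knockout Foxa3 had 381, Foxa2 229 and Foxa1 164. Foxa3 and Foxa2 thus held the highest and second highest levels of the whole family in the knockout library, from the 3rd and 14th place in the wild type. The authors' deposited table gives Foxa2 an adjusted p of 0.343 and the other Foxa genes 1. Foxa2 was called higher under every scaling tried, and Foxa3, just under 2-fold here, passed 2-fold under each of the 4 other scalings (log2 ratio 0.94 here and 1.02 to 1.12 there).

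Foxq1, an epithelial forkhead factor that is needed for mucin Muc5ac in mouse stomach surface cells, had 199 and 342 reads, 1.79-fold higher (1.5 to 2.14). Its log2 ratio of 0.83 lay at 0.91 to 1.01 under the other scalings. Muc5ac itself went the other way, with 705 and 8 reads, 84.6-fold lower (42.7 to 197). Of 7 stomach markers with a mean of at least 20, 5 were lower and 1 was higher (2772 and 1373 reads summed over the list). Among all genes so filtered, 3.58% were lower and 11.2% higher. The higher marker, Barx1 (1 and 496 reads), passes the filter only through the knockout library. The part of these markers in the Foxq1 value was not tested.

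Of the 4 Foxo genes, Foxo1 had an interval away from 1 and the others did not. Foxo1, the main target of insulin signalling in metabolic tissues, had 1056 and 550 reads, 1.84-fold lower (1.66 to 2.05). Foxo3 had 681 and 596 reads (ratio 0.912, 0.816 to 1.02), Foxo4 546 and 478 (0.912, 0.805 to 1.03) and Foxo6 229 and 217 (0.988, 0.816 to 1.19). The intervals of these last 3 hold 1, and their sign turned under 2 of the 4 other scalings for Foxo3 and Foxo4 and under all 4 for Foxo6, whereas Foxo1 stayed below 0 (log2 ratio -0.88 here and -0.80 to -0.70 there). Per kilobase, Foxo1 went from the 9th to the 15th level of the family (119 to 64.8 normalized reads).

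Foxm1, the mitotic factor, had 624 and 342 reads, 1.75-fold lower (1.53 to 2.0). Foxj3, which acts in male germ cells and had the highest level of the family in the wild type, had 1540 and 948 reads, 1.56-fold lower (1.44 to 1.69). Foxn2 had 508 and 329 reads, 1.48-fold lower (1.29 to 1.71), and Foxj2 475 and 377, 1.21-fold lower (1.05 to 1.39). Each of these 4 was below 0 under all scalings, and none reached 2-fold. The repressors Foxk1, with 944 and 874 reads, and Foxk2, with 794 and 735, both had a ratio of 0.965, with intervals of 0.879 to 1.06 and 0.871 to 1.07, and Foxn3, a checkpoint factor, had 225 and 241 (1.12, 0.927 to 1.34).

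Over the 15 expressed members, the interval lay above 1 in 4, below 1 in 5 and held 1 in 6, and their median log2 ratio was -0.05. All genes with at least 100 wild-type reads had a median of -0.19. Scaling moved every log2 ratio by up to 0.18 and the median of all genes averaging 20 or more reads from -0.11 to as much as 0.06, so ratios this close to 1 have no fixed sign.

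**Figure D3:**
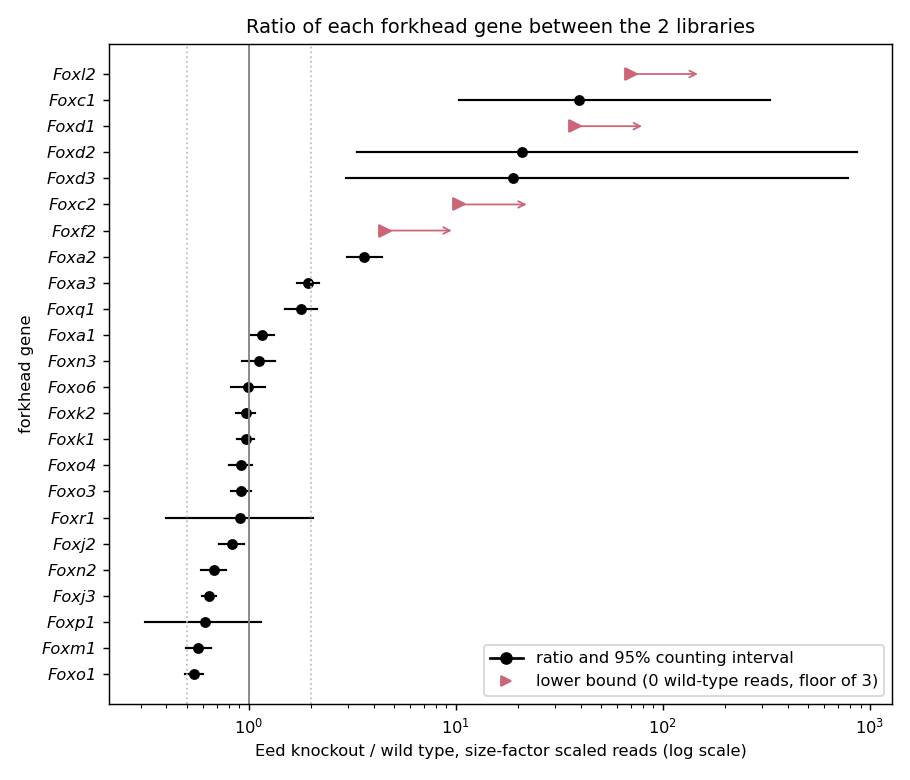
Ratio of size-factor scaled reads, Eed knockout over wild type (log scale), of the 24 forkhead genes that average 20 or more normalized reads or have 10 or more reads in a library, with 95% counting intervals, arrows marking lower bounds, and dotted lines at 2-fold. Foxl2, Foxc1, Foxd1, Foxd2, Foxd3, Foxc2, Foxf2 and Foxa2 lie above 2-fold, and Foxo1 is lowest at 0.543.

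Foxp1, which acts in lymphocytes, heart and lung, was the 1 member with several transcript rows. Its row with the most reads had 29 and 17 (ratio 0.611, 0.315 to 1.15), and its other rows 7 and 13, and 2 and 0. Genes with 2 rows had a median mean of 24 normalized reads, and those with 3 or more 22, against 92.5 for genes with 1 row. The part of the number of rows in the low level of Foxp1 was not tested. Foxp4 had 6 and 8 reads and Foxr1 15 and 13, with intervals that hold 1.

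Under a filter on the mean over both libraries, at least 20 normalized reads, 19 members remained and 4 of them were higher (Foxl2, Foxd1, Foxc1 and Foxa2), against 11.2% of 10879 genes, and 0 lower, against 3.58%. A silent gene passes such a filter only if it is high in the knockout library, so Foxl2, Foxd1 and Foxc1 had to differ. The median log2 ratio was -0.05 over these 19, beside -0.11 for all genes so filtered, and 0.62 over all 35, or 0.21 with members at 0 reads set to their bound. Over all 17216 genes both medians were 0.

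**Figure D4:**
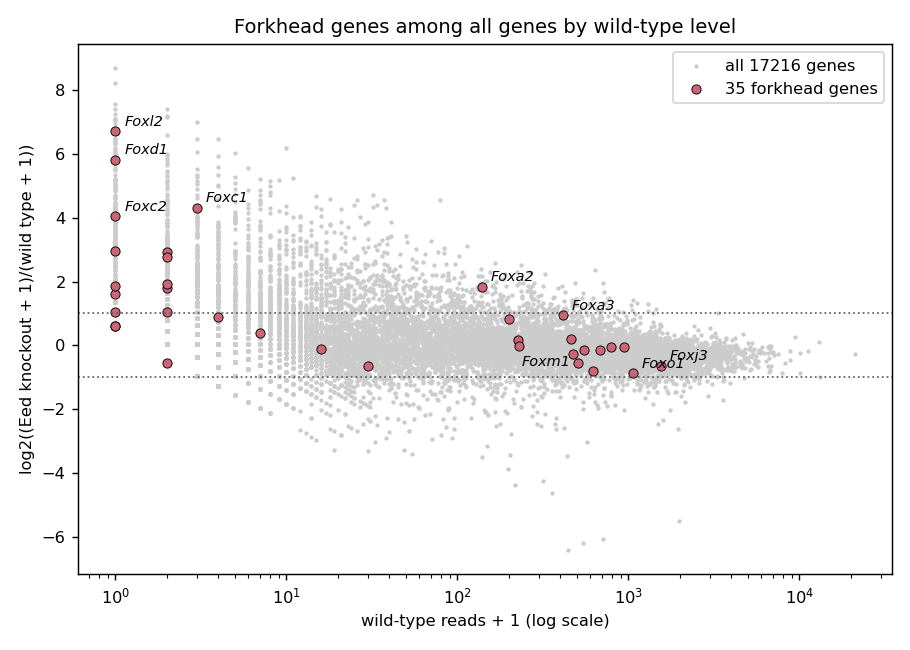
Log2 ratio on the log2(value + 1) scale against wild-type reads plus 1 (log scale) for all 17216 genes (grey) and the 35 forkhead genes (red), with dotted lines at 2-fold. Silent members lie along the left edge up to Foxl2 at 6.71, and of the members at 100 or more wild-type reads Foxa2, at 1.83, is the 1 outside the lines.

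Other families of developmental factors were read by the same rule. Of 17 Sox genes 9 were higher and 2 lower, and of 13 T-box genes 6 were higher and none lower. Among their members with at most 5 wild-type reads, 7 of 12 Sox genes (58.3%) and 6 of 10 T-box genes (60.0%) were higher, beside 11 of 17 forkhead genes (64.7%). No test of a difference between families was made.

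Markers of other cells also differed between the libraries. The 6 exocrine pancreas markers with values were all higher, at 42 and 1433 reads summed. Of the 11 fibroblast and telocyte markers with values, 5 were higher by the rule over all genes, against 14.8% of all genes. Most of these markers had at most 5 wild-type reads, and 28.5% of all such genes were higher. Col1a1 had 1 and 155 reads, Col1a2 0 and 124, Col3a1 6 and 198, Lum 0 and 16, and Dpt 1 and 7, whose interval holds 1. The others included Pdgfra (1 and 0), Gli1 (2 and 1), Dcn (0 and 1), Thy1 (19 and 14) and Vim (265 and 210). The list summed to 2485 and 1869 reads, most of them from Fbln1 with 2190 and 1143. By the same rule 5 of 6 macrophage markers were higher (108 and 484 reads summed), 3 of 5 endothelial markers (48 and 112) and 1 of 5 glia and neuron markers (59 and 114, Sox10 at 0 and 1). Of 6 smooth muscle markers 3 were higher, each with 8 knockout reads or fewer, and the sum of 124 and 122 came mostly from Tagln with 113 and 100. Among 6 T cell markers (253 and 239 summed) Cd4 was higher at 7 and 25 (ratio 3.72, 1.57 to 10.2). Of 7 ciliated cell markers (115 and 114) 2 were higher and 1 lower, the higher ones including Ccno at 7 and 22 (3.28, 1.35 to 9.08). Of 5 B cell markers (38 and 46, Pax5 at 0 in the wild type) 1 was higher. In bulk RNA a change in the number of cells and a change in RNA per cell cannot be told apart, and the part of other cells in the forkhead values was not tested.

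Genes linked to the forkhead factors were then read from lists. Each count covers the genes averaging 20 or more reads, of which 11.2% were higher and 3.58% lower over all genes, with a median log2 ratio of -0.11. Genes with few wild-type reads pass this filter only through the knockout library, so they had to be higher there. In the hedgehog pathway 3 of 8 genes were higher and 0 lower, and the log2 ratios had a median of 0.84. Shh, a hedgehog ligand, had 4 and 90 reads (ratio 23.4, 8.85 to 87.9), Gas1, a co-receptor, 2 and 40 (20.8, 5.41 to 178), and Boc, another co-receptor, 48 and 149 (3.24, 2.32 to 4.58). Their relative Cdon had 272 and 508 reads (1.95, 1.68 to 2.26). Shh and Gas1 pass the filter only through the knockout library, which leaves Boc. Gli1, the usual transcriptional readout of the pathway in mesenchyme, had 2 and 1 reads, too few to give a direction. Besides Cdon, 4 genes of the list passed the filter without a call. Ptch1 had 247 and 246 reads (1.04, 0.866 to 1.24) and Ihh 1245 and 1042 (0.872, 0.803 to 0.948). Smo had 376 and 575 (1.59, 1.4 to 1.82) and Hhat 42 and 68 (1.69, 1.13 to 2.54).

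Of 19 mitotic genes known as Foxm1 targets, none differed by 2-fold, although 18 were below 0 and the median log2 ratio was -0.64, beside -0.80 for Foxm1 itself and -0.11 for all genes so filtered. The exception, Plk1, had 971 and 1072 reads (ratio 1.15, 1.05 to 1.26). Cks1b, nearest to 0 of the 18 at -0.01, reached 0.17 under another scaling. Among them Birc5 had 112 and 57 reads, 1.89-fold lower (1.36 to 2.64), and Aurka, a mitotic kinase, 437 and 236, 1.78-fold lower (1.51 to 2.09). Nek2 and Cenpe were likewise each 1.78-fold lower. The list's median stayed between -0.56 and -0.46 under the other scalings. By the rule over all genes, 1 of the 23 listed genes with a value was higher and 0 lower. The shares over all genes were 14.8% and 4.81%. The higher gene was Cdc25b, which the filter left out, with 8 and 23 reads (ratio 3.00, 1.29 to 7.75).

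Of 29 genes of the PI3 kinase to FoxO axis and its targets, 2 were higher, 1 of them only through its knockout reads, and 2 lower. These shares lie near those of all genes. The median log2 ratio of the list was -0.34, and -0.26 to -0.16 under the other scalings. The insulin receptor substrate Irs1 had 41 and 99 reads (ratio 2.52, 1.73 to 3.72). Trim63, a FoxO target best known in muscle atrophy, had 38 and 6 reads, 6.08-fold lower (2.55 to 17.6), and Sesn1, a stress-induced sestrin, 88 and 33, 2.56-fold lower (1.70 to 3.94). Other listed genes went the other way. Fbxo32 had 187 and 355 reads (ratio 1.98, 1.65 to 2.37). Igfbp1, which the filter left out, had 0 and 33 reads, at least 11.5-fold higher. Of the 29 genes, 22 were below 0.

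Of 19 endoderm and intestinal factors, which work beside the Foxa proteins, 5 were higher and 0 lower, and 2 of the 5, Sox17 and Hhex, pass the filter only through the knockout library. The log2 ratios had a median of -0.22. Sox17, an early endoderm factor, had 1 and 279 reads (ratio 291, 51.8 to 11500), and Hhex 18 and 89 (5.15, 3.08 to 9.09). Prox1 had 78 and 265 reads (3.54, 2.74 to 4.62), and Spdef, of goblet cells, 586 and 1388. Of the 19, 12 were below 0. Among them Cdx2 had 1964 and 1015 reads, 1.86-fold lower (1.72 to 2). Hnf4g had 3545 and 1854, 1.83-fold lower (1.73 to 1.94), and Gata4 2158 and 1169, 1.77-fold lower (1.65 to 1.9). The median of this list lay between -0.15 and -0.05 under other scalings. None of the 5 genes of the Foxj1 ciliary list or the 7 of the Foxp list with a mean of at least 20 differed by 2-fold. By the rule over all genes, 5 of 17 ciliary genes were higher and 1 lower, and 1 of 11 Foxp list genes was higher. Over all genes 14.8% were higher and 4.81% lower, and 28.5% were higher among those with at most 5 wild-type reads. Dnah11 had 2 and 20 reads (ratio 10.4, 2.53 to 92), and the lower ciliary gene, Ccdc39, had 7 and 3 (0.447, 0.0745 to 1.96). In the short list of Foxn and Foxi targets 1 of 4 was higher, Krt15, with 27 and 61 reads (2.35, 1.47 to 3.85). Foxn1 and the Foxi genes were not among the 35 members. By the rule over all genes, 3 of the 10 genes of this list were higher and 0 lower. Among these 3, Atp6v1b1 had 0 and 24 reads, at least 8.34-fold higher.

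**Figure D5:**
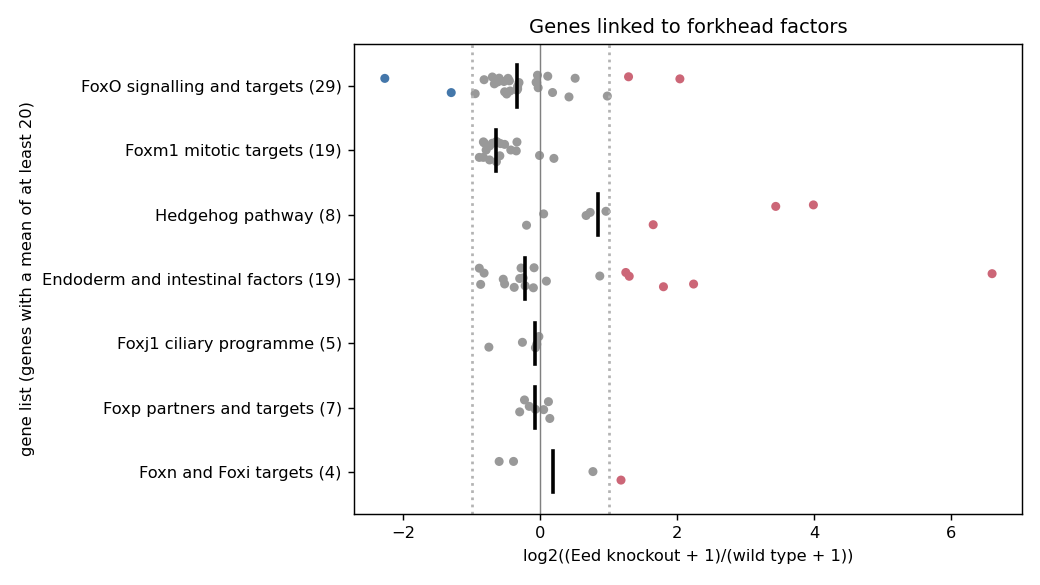
Log2 ratio on the log2(value + 1) scale of the genes averaging 20 or more reads in 7 lists linked to forkhead factors (number of genes in brackets), with a bar at each median, dotted lines at 2-fold, and red or blue points past them. In the Foxm1 target list 18 of 19 genes lie left of 0, with the median at -0.64, and in the hedgehog list 3 of 8 genes lie past 2-fold on the right. Of these 3, Shh and Gas1 pass the filter only through the knockout library.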

How the data were processed

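Per the labels' protocols, mRNA-seq libraries of small intestine crypts, 1 wild type and 1 Eed knockout, were made with a TruSeq RNA kit. The submitters' processing notes name TopHat, DESeq and the build mm9. Not given in the sources used here were tool versions, the program that counted reads and its strand setting. The deposited file is 1 table of 18766 RefSeq transcript rows with a normalized signal per library, which is reads plus 1 divided by a size factor: within 1e-06, 100% of values are whole multiples of the column's lowest value, and no row is at that value in both libraries. The deposited table also holds the authors' fold change, its log2 and p-values, unadjusted and adjusted; the sources do not state how these p-values were had without replicates.

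Reads were recovered as the multiple minus 1. A gene is its row with the highest mean. For log2 ratios a pseudocount of 1 was added to both values, which understates differences of low genes. Calls are 2-fold, either over all genes (0 reads set to a floor of 3) or with a mean of at least 20. Each ratio has a 95% interval (exact Clopper-Pearson, given a gene's total reads); PCR copies were not marked by molecular identifiers, so reads need not be independent. There was no test of genotype. Levels are size-factor scaled reads per kilobase of GENCODE vM21 transcript length, and no member exceeded 0.374 reads per base. Gene order and promoter sequences came from RefSeq GRCm38.p6, which matched 98.6% of rows by accession and is not the authors' build. Members with a mean of at least 20 or at least 10 reads in a library are named, as are up to 4 genes per list with the largest log2 ratios. Others were named after their values were seen, among them Faim, Gli1, Ptch1, Ihh, Smo, Hhat, Plk1, Pdgfra, Dcn, Lum, Dpt, Cd4, Ccno and Cks1b. The same holds for Fbxo32, Igfbp1, Cdc25b, Dnah11, Ccdc39, Atp6v1b1, Hnf4g, Gata4, Vim and Thy1. Values of 1 forkhead gene and 1 list gene are not reported here by name, though counts include them. The members and lists were chosen with earlier results of these data known; the Sox and T-box comparison, the split at 5 and 100 wild-type reads and the CG counts were chosen after the data were seen. Functions were tested on simulated data. Software was SciPy 1.17.1, pandas 2.3.3, NumPy 2.4.6, Matplotlib 3.10.9 and Python 3.11.15.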

Additional observations from a re-analysis of the deposited data

How the results depend on the processing

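No paired analysis was possible because each genotype has 1 library, and for the same reason no replicate could be left out. With 0 reads at the floor, 10 to 15 forkhead genes were higher under the settings tried, which were 4 other scalings, folds of 1.5 and 3, summed rows, a floor of 1 read and the interval rule. The count of lower members was 0 under each of these except a fold of 1.5, which called 4 lower with either filter (Foxo1, Foxm1, Foxj3 and, at a low read number, Foxp1). With a mean of at least 20, the count of higher members was 14 with no filter (by ratios with a pseudocount, where the floor of 3 reads gave 12), 7 at a mean of at least 10 and 2 at a mean of at least 100. The median log2 ratio of the members with a mean of at least 20, -0.05, became 0.62 with no filter and 0.88 as a mean of members, and lay between 0.03 and 0.12 under the other scalings. The median over all members, 0.62, became 0.21 with a pseudocount of 10, 0.94 with 1 read taken off every value and 1.16 as a mean. Scaling moved the share of higher genes among all genes past 2-fold from 75.7% to between 80.4% and 85.9%. Depth limits the 11 members with fewer than 10 reads in both libraries, of 0 to 9 reads each.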
